A study of Lens culinaris with 18 samples.

Results

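Whether the expression difference between the lentil line M11 and the cultivars Redmoon and Gold depended on the seed tissue was examined in every gene. All 18 libraries of the series entered 1 fit of 6 groups. For each gene, the M11 level in embryos minus the mean of both cultivar groups was taken on the log2 scale, and the same difference in seed coat with endosperm was subtracted from it. Of the 58243 genes in the deposited tables, 22081 passed the filter on low counts and were tested. This value is called the tissue dependence below. It is positive where M11 stood relatively higher in embryos and negative where it stood relatively higher in seed coat with endosperm.

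The polyA RNA came from dissected mature green seeds. M11 is a natural germplasm line that carries a mutated *LcLTP3b* allele, and Redmoon (CDC Redmoon) and Gold (CDC Gold) are the cultivars it was compared with and crossed to. Each genotype had 3 embryo libraries and 3 libraries of seed coat with endosperm, and the labels name no treatment. M11 is a germplasm line of its own, so the mutated allele and the rest of its genome cannot be told apart in these groups. Whether replicate libraries stem from different plants is not stated, so the p-values measure only the spread between these libraries, which may be technical.

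The embryo of a lentil seed is mostly cotyledon, which fills its cells with storage protein as the seed matures. The seed coat is maternal tissue around it that passes nutrients to the embryo and later forms the protective and pigmented shell, and the endosperm of a mature legume seed is a thin remnant. Vicilin is a globulin stored in the cotyledons and a source of the allergen *Len c1*, whereas *LcLTP3b* encodes the allergen Len c3, which belongs to the lipid transfer proteins, a family of small secreted proteins that bind lipids.

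Gold embryo replicate 3 had the lowest total count, 3270275, and Gold seed coat reached the highest, 24309401. The M11 seed coat libraries held 5907695 to 6691125. The biological coefficient of variation, the spread between libraries beyond counting error, was smallest in M11 embryos (2.72%) and largest in Gold embryos (9.53%). The 16 vicilin genes listed by the study took 13.8% to 14.2% of the counts in M11 embryos. In Redmoon embryos their share was 33.1% to 35.3%, and Gold embryos had 34.2% to 36.0%, against 0.170% to 0.783% in all seed coat libraries. The seed coat label could not be checked, because the sources used here pair no seed coat gene with an identifier. In both tissues, 116 genes were on in 1 cultivar, with at least 2 CPM (counts scaled to a common library total) in each of its libraries, and off in the other, at 0.1 CPM or less in each. All 116 were on in opposite cultivars in the 2 tissues, and 0 were on in the same cultivar. For these genes the cultivar labels of the 2 tissues did not match. They match if Redmoon and Gold are exchanged in 1 tissue. Whether such an exchange occurred was not tested. Group names are thus those of the library labels, and results are given against the cultivar mean, which keeps its value if Redmoon and Gold are exchanged in 1 tissue. Total counts and the genes described most fully are also given against the 4 pairings of cultivar embryos with cultivar seed coats, 2 as labelled and 2 crossed.

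The M11 difference depended on the tissue in a large share of genes. The tissue dependence was called in 10663 of 22081 genes, or 48.3% (edgeR's quasi-likelihood test, Benjamini-Hochberg adjusted p under 0.05). It was positive in 5001 genes (22.6%) and negative in 5662 (25.6%). The median size of the called values was 0.88 on the log2 scale, with a median standard error of 0.14. The values exceeded 1 in size in 4720 called genes, of which 2118 were positive and 2602 negative, and they exceeded 3 in 512 and 628 genes. In the same fit, the M11 difference from the cultivar mean was called in 14717 embryo genes (66.7%), with 7662 higher (34.7%) and 7055 lower (32%) in M11. In seed coat with endosperm it was called in 14764 genes (66.9%), with 7608 higher (34.5%) and 7156 lower (32.4%). In bulk tissue such as this, fewer cells of a type and less RNA per cell cannot be told apart. When the Redmoon and Gold libraries of a tissue were made 1 group, so that the difference between the cultivars counted as spread, 5164 genes were called, and 5117 of these were also among the 10663 with the same sign. The direction depended on the scaling. TMM scales by the genes left after those with the most extreme ratios between libraries or mean levels are set aside. With TMM, 46.9% of the called values were positive and the median of all genes was -0.02. With library totals alone, 86.0% of 14090 called values were positive and the median of all genes moved to 0.74. Directions below are by TMM unless another scaling is named.

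**Figure D1:**
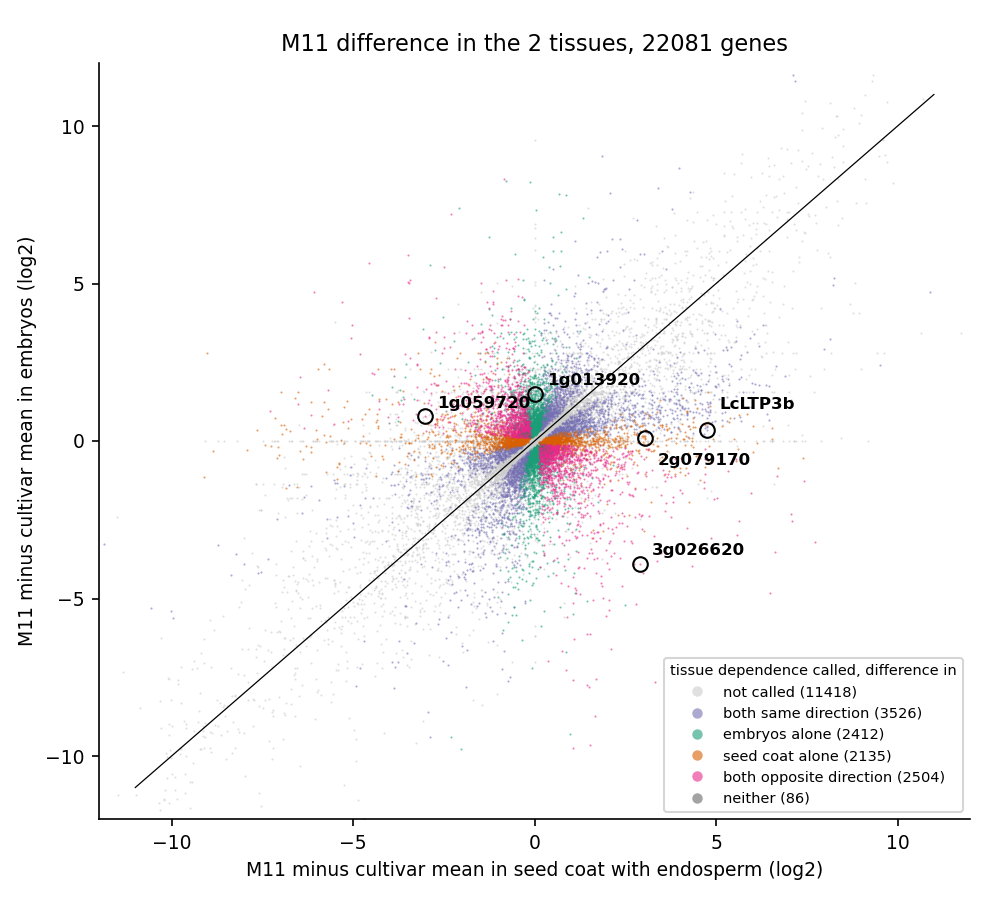
Each point is 1 of the 22081 genes tested, with the M11 difference from the cultivar mean in seed coat with endosperm on the x axis and in embryos on the y axis, both log2, and the line marks equal differences. The 2412 genes called in embryos alone lie along the vertical axis, the 2135 called in seed coat alone along the horizontal axis, and the 2504 opposite genes in the upper left and lower right, with *LcLTP3b* far to the right at 4.75 in seed coat and 0.34 in embryos.

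The called genes were sorted by where the M11 difference itself was called. In 2412 genes (10.9% of all genes tested) M11 differed in embryos but was not called in seed coat with endosperm, with 1242 higher and 1170 lower in M11. Their median difference was 0.77 in size in embryos and 0.12 in seed coat. In 2135 genes (9.67%) it differed in seed coat with endosperm and was not called in embryos, with 1066 higher and 1069 lower in M11, and median sizes of 0.79 and 0.11. Another 3526 genes (16%) differed in the same direction in both tissues but to unequal extents. M11 was higher in both tissues in 1966 of them, by more in embryos in 884 and by more in seed coat in 1082. It was lower in both in 1560, by more in embryos in 990 and by more in seed coat in 570. In 2504 genes (11.3%) the M11 difference was called in both tissues with opposite signs. M11 was higher in embryos and lower in seed coat in 1186 of these, and lower in embryos and higher in seed coat in 1318. At least 2-fold differences in both directions were found in 175 and 235 of them. The remaining 86 genes (0.389%) were not called in either tissue. A further 4504 genes differed in both tissues without a called tissue dependence.

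**Figure D2:**
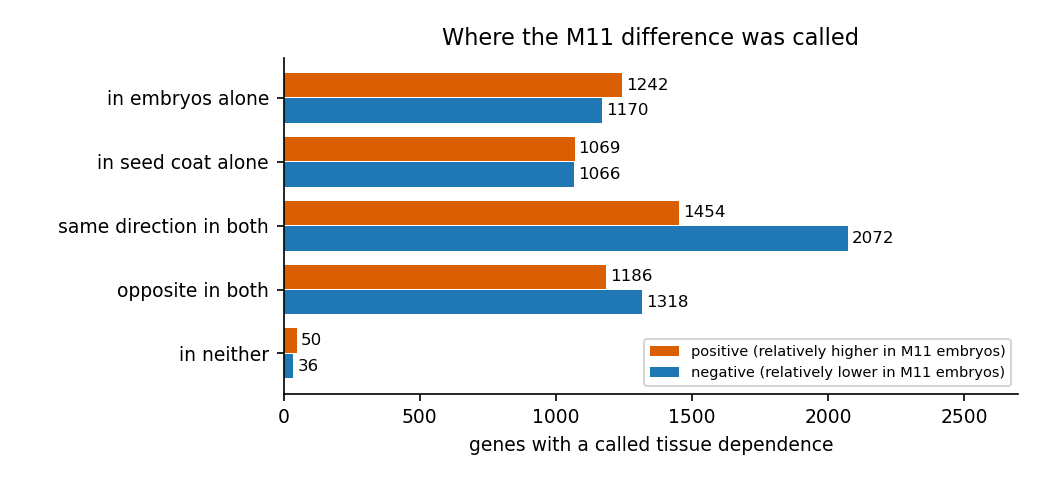
Bars give the number of genes with a called tissue dependence (x axis) by the tissues in which the M11 difference was called (y axis), split into positive and negative values. The genes called in 1 tissue alone split almost evenly, with 1242 and 1170 in embryos and 1069 and 1066 in seed coat, whereas the genes that differed in the same direction were more often negative, 2072 against 1454.

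The same contrast was computed without M11 to show how far the cultivars differed from each other in this respect. As labelled, the Redmoon minus Gold difference depended on the tissue in 12267 genes (55.6%), 30.9% of all genes tested being positive and 24.7% negative. With the cultivar labels exchanged in 1 tissue, 9173 genes (41.5%) were called, 18.1% positive and 23.5% negative. The M11 count of 10663 therefore lay between both readings of the cultivars. The median standard error over all genes was 0.22 for the M11 contrast, which averages over more libraries, and 0.25 for each cultivar contrast. Against single cultivars, which share the M11 libraries, 10422 genes (47.2%) were called with Redmoon, 4519 positive (20.5%) and 5903 negative (26.7%). With Gold, 12203 genes (55.3%) were called, 6201 positive (28.1%) and 6002 negative (27.2%). Against Redmoon embryos with Gold seed coats, 10363 genes (46.9%) were called, 23.3% positive and 23.6% negative. Against Gold embryos with Redmoon seed coats it was 10326 (46.8%), 20.5% positive and 26.2% negative. To set M11 apart from both cultivars, each gene's embryo minus seed coat difference in M11 was compared with the 4 differences that the cultivar groups allow. It lay outside all 4 in 8385 of the called genes (78.6%), compared with 55.6% of all genes tested. Among the genes with opposite differences it was outside all 4 in 2389 of 2504 (95.4%). The rule for a call used the same libraries, so these shares describe the called genes and are no separate test.

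Embryos and seed coats differed less from each other in M11 than in the cultivars. The standard deviation of the embryo minus seed coat difference over all genes tested was 2.34 on the log2 scale in M11 and 2.66 in both Redmoon and Gold, or 2.51 and 2.52 with the cultivars crossed. Among the 8833 genes with the highest mean level, where counting error is small, it was 1.83 in M11 and between 2.01 and 2.09 in the 4 cultivar pairings. Genes more than 3 log2 units higher in embryos numbered 1316 in M11 and 1606 to 2122 in the cultivar pairings. Genes more than 3 units higher in seed coat numbered 2312 in M11 and 2363 to 2710 in the pairings. These counts are by TMM. Another scaling shifts all genes of a pairing together and moves genes across such a fixed limit. No test was made of these spreads and counts, since genes are not replicates.

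By TMM, negative values were more frequent among embryo-rich genes and less frequent among seed coat-rich genes than among all genes tested, of which 22.6% were positive and 25.6% negative. These shares are described without a test. Genes were divided by their embryo minus seed coat difference averaged over the 3 genotypes with equal weight. The classes and the tissue dependence came from the same libraries, so the shares describe these genes and are no independent evidence. Of the 1355 embryo-rich genes, with a mean difference over 3, 555 were negative (41.0%) and 101 positive (7.45%), and the median tissue dependence was -0.74. In these genes the median M11 difference was 0.08 in embryos, against 0.58 in seed coat. Of the 2139 seed coat-rich genes, with a mean difference under -3, 575 were positive (26.9%) and 356 negative (16.6%), with a median of 0.45. Their median M11 difference was 0 in embryos and -0.42 in seed coat. In the 10470 genes within 1 log2 unit the directions were close to even, with 2458 positive and 2545 negative. By TMM, the median M11 difference of the embryo-rich and of the seed coat-rich genes was thus further from 0 in seed coat than in embryos. Without the vicilin genes, 544 of 1340 embryo-rich genes were negative and 100 positive. Among the 8833 genes with the highest mean level, 235 of 332 embryo-rich genes were negative (70.8%) and 34 positive, while 202 of 392 seed coat-rich genes were positive (51.5%) and 113 negative, beside 31.6% positive and 35.9% negative of all 8833. With the cultivars as 1 group, 322 embryo-rich genes were negative and 43 positive, and 363 seed coat-rich genes were positive and 184 negative. The seed coat-rich excess was weaker under other settings. With at least 10 counts in every library, 77 of 172 seed coat-rich genes were positive and 67 negative, with a median of 0.15. Of 341 embryo-rich genes, 237 were then negative and 32 positive. With DESeq2 the seed coat-rich median was 0.18, with 602 positive and 423 negative. Library totals alone gave 339 negative and 298 positive embryo-rich genes, with a median of 0.04. Of the seed coat-rich genes, 899 were positive and 205 negative by that scaling, with a median of 1.05. Once the median of all genes by that scaling was subtracted, these medians were -0.70 and 0.31. Another scaling shifts all genes together, so this subtraction largely undoes it and is no separate check. The vicilin genes, as markers of embryo tissue, took 0.201% to 0.226% of the counts in M11 seed coat with endosperm. The share was 0.715% to 0.783% where the label was Redmoon and 0.170% to 0.194% where it was Gold. Of the 16 vicilin genes, 1 (Lcu.2RBY.6g038600) had 0 counts in every seed coat library. The part of embryo RNA in this result was not tested.

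**Figure D3:**
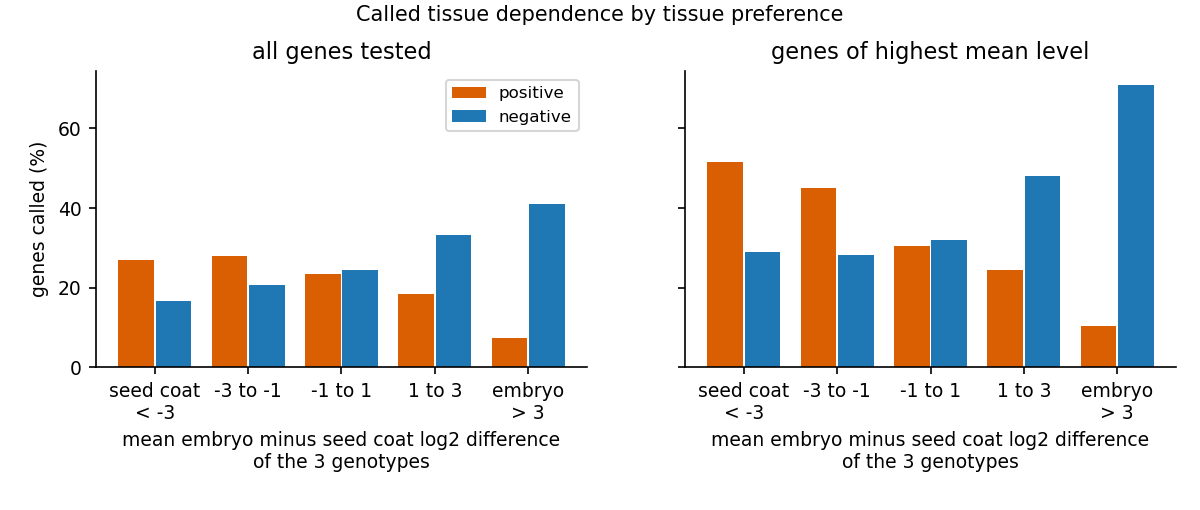
Bars give the percentage of genes called positive or negative (y axis) in classes of the mean embryo minus seed coat log2 difference of the 3 genotypes (x axis), for all genes tested on the left and for the 8833 genes with the highest mean level on the right. The negative share goes from 16.6% in the seed coat-rich class to 41.0% in the embryo-rich class, and on the right from 28.8% to 70.8%. The classes and the calls come from the same libraries.

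The preferred tissue itself was reversed in few genes. In 101 genes M11 was at least 2-fold higher in embryos than in seed coat while the cultivar mean was at least 2-fold higher in seed coat, and in another 101 genes the reverse held. Against all 4 cultivar pairings, 36 and 27 genes met the same limits. Genes on in 1 M11 tissue and off in every other comparison were rarer still. Using the limits of 2 and 0.1 CPM, 6 genes were on in M11 seed coat with endosperm and off in M11 embryos and all cultivar groups, and 1 gene was on in M11 embryos alone. Likewise, 3 genes were off in M11 embryos and on in the other 5 groups, and 1 gene was off in M11 seed coat alone. These genes are counted and not named, since the sources used here give no function for them.

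In counts rather than genes, the negative genes held most of the embryo counts. The 5662 negative genes held 54.7% to 55.0% of all counts in the M11 embryo libraries. They held 75.2% to 75.6% in Redmoon embryos and 83.7% to 84.4% in Gold embryos. Their share of the seed coat counts was 36.1% to 36.3% in M11, against 27.2% to 27.5% in Redmoon and 26.1% to 26.3% in Gold. M11 was thus below both cultivars in embryos and above both in seed coat, with no overlap between libraries. The genes were chosen for a negative tissue dependence in these same libraries, so the shares are no separate evidence of it. Leaving out the vicilin genes, the negative genes held 41.2% to 41.4% in M11 embryos, while Redmoon embryos had 40.3% to 42.6% and Gold embryos 49.2% to 50.4%, so that M11 and Redmoon then overlapped. The 5001 positive genes held 24.8% to 24.9% of the counts in M11 embryos, against 11.8% to 12.2% for Redmoon and 7.25% to 7.44% for Gold. Their seed coat shares were 38.0% to 38.4% for M11, 46.5% to 47.2% for Redmoon and 46.9% to 47.3% for Gold. The same limit holds for the positive genes, which were chosen in the same way.

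*LcLTP3b* (Lcu.2RBY.4g013600), the gene mutated in M11, was 1 of the 628 called genes whose tissue dependence was below -3. In seed coat with endosperm it had 30.0, 29.5 and 32.1 TMM-normalized CPM in the M11 libraries. The libraries labelled Redmoon had 1.06, 1.37 and 1.04, and those labelled Gold 1.20, 1.05 and 1.12. All M11 seed coat libraries thus stood far above all cultivar ones. In embryos the values were 55.1, 52.7 and 58.3 in M11, 28.2, 35.5 and 30.3 in Redmoon and 51.2, 70.9 and 55.4 in Gold. M11 embryos lay above Redmoon and within the range of Gold. The embryo level of *LcLTP3b* exceeded its seed coat level 1.81 times in M11, 27.0 times in Redmoon and 52.6 times in Gold. The M11 difference from the cultivar mean was 4.75 log2 units in seed coat with endosperm (edgeR adjusted p = 5.16e-39) and 0.34 in embryos (edgeR adjusted p = 4.11e-06). The tissue dependence was -4.40 (standard error 0.15, edgeR adjusted p = 1.63e-33). Against the 4 cultivar pairings it was -3.92 with Redmoon, -4.88 with Gold, -3.93 with Redmoon embryos and Gold seed coats, and -4.87 with Gold embryos and Redmoon seed coats. How reads of the mutated allele or of related lipid transfer protein genes were counted is not given in the sources used here.

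Against the cultivar mean, 13 of the 16 vicilin genes were lower and 2 higher in M11 embryos, and 14 were lower and 1 higher in M11 seed coat, beside 32% lower and 34.7% higher of all genes tested in embryos and 32.4% and 34.5% in seed coat. Most of the list was further below the cultivar mean in embryos. The list comes from a table that the study made of these libraries and is not taken as independent evidence of a direction. Reads can be split between related members of this family, so the counts on all 16 genes were also summed as 1 feature. In embryos the vicilin sum was 129425, 125154 and 125465 TMM-normalized CPM in M11, 476941, 464674 and 496892 in Redmoon, and 777961, 712092 and 732775 in Gold. The seed coat libraries had 1375, 1361 and 1530 in M11, 5449, 5525 and 5954 in Redmoon, and 1251, 1318 and 1430 in Gold. By TMM, M11 embryos lay below all cultivar embryos, whereas M11 seed coats lay below Redmoon and overlapped Gold. By library totals alone M11 seed coats had 2007 to 2256 CPM and lay above Gold, which had 1703 to 1938. The vicilin sum differed from the cultivar mean by -2.23 log2 units in embryos and -0.95 in seed coat. Its tissue dependence was -1.29 (standard error 0.08, edgeR adjusted p = 1.44e-20), that is, 2.44-fold lower. This value depended on which cultivar groups were paired, and the labels of the 2 tissues may not name the same cultivar. With both groups labelled Redmoon it was 0.07 (edgeR adjusted p = 0.603), whereas both groups labelled Gold gave -2.64 (edgeR adjusted p = 4.71e-32). In the crossed pairings it was -2.01 with Redmoon embryos and Gold seed coats (edgeR adjusted p = 2.80e-26) and -0.56 with Gold embryos and Redmoon seed coats (edgeR adjusted p = 9.83e-07). The ratio of embryo to seed coat level was 89.1 in M11, 85.0 in Redmoon and 556 in Gold. Crossed, it was 360 for Redmoon embryos over Gold seed coats and 131 for Gold embryos over Redmoon seed coats. By TMM, M11 thus lay close to Redmoon as labelled and below both crossed ratios. This order depended on the scaling. By library totals alone the mean CPM in embryos and seed coat was 139855 and 2102 in M11, 341535 and 7470 in Redmoon, and 353805 and 1807 in Gold. The M11 ratio then lay above that of Redmoon and above that of Gold embryos over Redmoon seed coats. With the cultivars as 1 group the vicilin sum was not called (-0.97, edgeR adjusted p = 0.366). With library totals alone it was -0.51 (edgeR adjusted p = 1.96e-07), where the median of all genes was 0.74.

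Among the 16 vicilin genes, 11 were negative, 2 were positive and 3 were not called, with a median of -0.998, beside 25.6% negative, 22.6% positive and a median of -0.02 over all genes tested. The median was 0.51 against Redmoon, -2.38 against Gold, -1.69 with Redmoon embryos and Gold seed coats and -0.31 with Gold embryos and Redmoon seed coats. In 10 of the 11 negative genes M11 was lower in both tissues and further below in embryos, with values from -1.56 in Lcu.2RBY.3g014440 to -0.80 in Lcu.2RBY.4g077560. The call did not hold with the cultivars as 1 group for 10 of the 11, the exception being Lcu.2RBY.6g038590. Under that grouping the 10 values lay between -1.75 (Lcu.2RBY.6g038550) and -0.55 (Lcu.2RBY.6g038160). With library totals alone Lcu.2RBY.4g077560 (-0.02), Lcu.2RBY.6g038160 (-0.03) and Lcu.2RBY.6g038550 (-0.23) were not called.

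Lcu.2RBY.3g014440 had the most negative value of the list. Its level in embryos was 15742, 15069 and 15383 TMM-normalized CPM in M11, 49715, 47245 and 52332 in Redmoon, and 109891, 111730 and 115714 in Gold. Its seed coat level was 174, 192 and 208 in M11, 706, 698 and 735 in Redmoon, and 131, 138 and 149 in Gold. M11 was the lowest of the 3 genotypes in embryos and stood between the cultivars in seed coat. Its tissue dependence was -1.56 (standard error 0.08, edgeR adjusted p = 4.79e-24), with 0.20 for Redmoon alone (edgeR adjusted p = 0.0686) and -3.33 for Gold alone (edgeR adjusted p = 1.19e-36). Both crossed pairings were negative and called, at -2.15 for Redmoon embryos and Gold seed coats (edgeR adjusted p = 1.91e-27) and -0.97 for Gold embryos and Redmoon seed coats (edgeR adjusted p = 2.51e-13).

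Lcu.2RBY.6g038590 was the member whose negative value was called against every cultivar pairing and also with the cultivars as 1 group. It had 5747, 5655 and 5718 TMM-normalized CPM in M11 embryos, 26722, 26719 and 26914 in Redmoon embryos, and 13729, 12627 and 14605 in Gold embryos. The seed coat levels were 74.8, 71.3 and 79.6 in M11, 136, 141 and 156 in Redmoon, and 95.9, 90.4 and 115 in Gold. M11 lay below both cultivars in both tissues without overlap. The tissue dependence was -1.07 (standard error 0.09, edgeR adjusted p = 1.04e-15). The 4 pairings gave -1.29 with Redmoon, -0.84 with Gold, -1.81 with Redmoon embryos and Gold seed coats and -0.32 with Gold embryos and Redmoon seed coats, where it was smallest (edgeR adjusted p = 0.00785). With the cultivars as 1 group it was -1.12 (edgeR adjusted p = 0.0403).

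The 2 positive members were Lcu.2RBY.5g065750 and Lcu.2RBY.7g031050. Lcu.2RBY.5g065750 was a low gene with opposite differences in the tissues. It had 9.11, 10.8 and 10.8 TMM-normalized CPM in M11 embryos, 5.76, 7.48 and 6.77 in Redmoon embryos, and 7.38, 6.25 and 4.98 in Gold embryos, so M11 was the highest. In seed coat it had 5.36, 8.53 and 4.57 in M11, 16.3, 17.2 and 15.6 in Redmoon, and 9.11, 10.3 and 10.8 in Gold, so M11 was the lowest. The difference was 0.62 in embryos and -1.06 in seed coat, and the tissue dependence of Lcu.2RBY.5g065750 was 1.68 (standard error 0.18, edgeR adjusted p = 3.97e-12). It was called against all 4 pairings, between 1.33 and 2.03, and with the cultivars as 1 group (1.74, edgeR adjusted p = 0.000826).

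For Lcu.2RBY.7g031050 the cultivars as labelled gave opposite values. The M11 embryo libraries had 3092, 2993 and 2908 TMM-normalized CPM, between Redmoon with 439, 416 and 435 and Gold with 20890, 19329 and 18686. The M11 seed coat libraries had 11.2, 11.7 and 12.8, between Gold with 1.64, 1.75 and 2.79 and Redmoon with 179, 183 and 210. The tissue dependence against the cultivar mean was 0.79 (standard error 0.13, edgeR adjusted p = 6.38e-07), but Redmoon alone gave 6.80 and Gold alone -5.23, with 0.29 and 1.29 in the crossed pairings. It was not called with the cultivars as 1 group (1.27, edgeR adjusted p = 0.745). As labelled, Lcu.2RBY.6g038550 had the reverse signs, with -4.83 against Redmoon and 2.80 against Gold. Crossed, it was -1.88 with Redmoon embryos and Gold seed coats (edgeR adjusted p = 3.28e-17) and -0.15 with Gold embryos and Redmoon seed coats (edgeR adjusted p = 0.473). Against the cultivar mean Lcu.2RBY.6g038550 was at -1.01 (edgeR adjusted p = 1.08e-09), and it was likewise not called with the cultivars as 1 group (-1.75, edgeR adjusted p = 0.455).

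The 3 members without a call differed in their reason. Lcu.2RBY.6g035140 had a tissue dependence of -0.41 (standard error 0.19, edgeR adjusted p = 0.0732), which became -0.56 (edgeR adjusted p = 0.026) without M11 seed coat replicate 1 and -0.46 (edgeR adjusted p = 0.0413) without Redmoon seed coat replicate 2. Under the other alternatives it was not called. It turned to 0.38 with library totals alone (edgeR adjusted p = 0.0571). With all libraries thinned to the smallest total it was -0.20 (edgeR adjusted p = 0.637). Lcu.2RBY.7g031150 had 3 counts in the M11 seed coat libraries in all, and its value of -0.27 carried a standard error of 1.43. Without M11 seed coat replicate 1, which held all 3 counts, the fitted value of Lcu.2RBY.7g031150 turned to 3.66, and leaving out any other library gave -0.85 to -0.15, none of them called. It was not detectable at this depth whether its difference depended on the tissue, although M11 was lower in embryos with 7.17 to 8.97 TMM-normalized CPM against 70.0 to 92.6 in the cultivars. Lcu.2RBY.6g038600 had 0 counts in all 9 seed coat libraries, for which 3 counts over a group set an upper limit of 0.158 CPM in M11, 0.0999 CPM in Redmoon and 0.0436 CPM in Gold. These limits cover counting error only. No tissue dependence can be given for it.

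**Figure D4:**
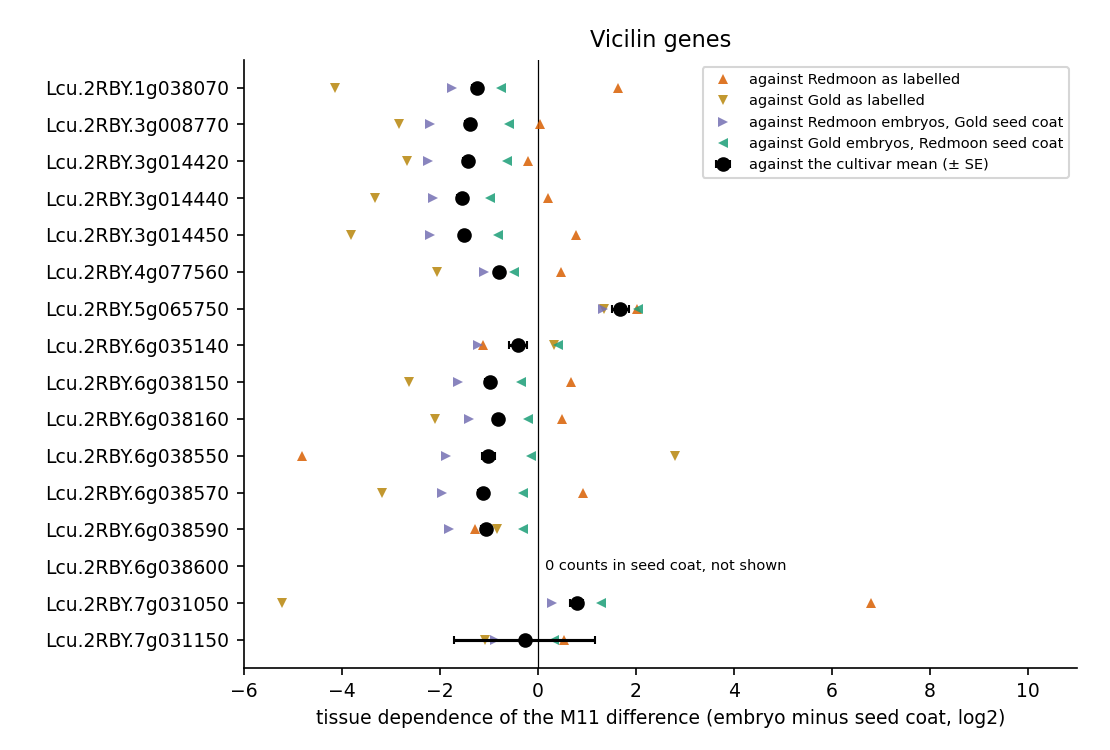
Tissue dependence (x axis, log2) of each vicilin gene (y axis) against the cultivar mean, with its standard error, and against the 4 pairings of cultivar embryos and seed coats. Values against Redmoon and Gold as labelled lie far apart, at 6.80 and -5.23 for Lcu.2RBY.7g031050, while for Lcu.2RBY.5g065750 all lie above 0 and for Lcu.2RBY.6g038590 all lie below 0.

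Outside the genes named by the study, 1 gene of each of 4 patterns is described. Each was the gene whose M11 embryo minus seed coat difference lay farthest from all 4 cultivar pairings, so it is an extreme of its pattern and not a typical member. The choice was among called genes with at least 10 counts in every library and a difference outside all 4 pairings. The numbers of genes given below count only those within these limits. The sources used here give no name or function for these identifiers.

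Lcu.2RBY.1g013920 was chosen from 515 of the 1242 called genes that were higher in M11 embryos and not called in seed coat. In embryos it had 28.8, 26.2 and 27.4 TMM-normalized CPM in M11, 10.4, 10.02 and 10.5 in Redmoon, and 8.95, 9.05 and 11.2 in Gold. In seed coat it had 19.8, 16.4 and 15.6 in M11, 17.9, 16.3 and 17.05 in Redmoon, and 16.7, 18.6 and 16.1 in Gold. M11 stood above every cultivar library in embryos, and the 3 genotypes overlapped in seed coat. The tissue dependence of Lcu.2RBY.1g013920 was 1.49 (standard error 0.12, edgeR adjusted p = 9.55e-17), from 1.499 in embryos and 0.01 in seed coat (edgeR adjusted p = 0.949), and it ranged from 1.41 to 1.57 over the 4 pairings.

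Lcu.2RBY.2g079170 was the reverse case, chosen from 484 genes that were higher in M11 seed coat and not called in embryos. In seed coat it had 33.0, 37.5 and 30.7 TMM-normalized CPM in M11, 3.88, 4.03 and 3.53 in Redmoon, and 4.79, 4.37 and 4.16 in Gold. In embryos it had 40.0, 40.3 and 38.5 in M11, 45.6, 41.5 and 35.9 in Redmoon, and 31.5, 36.0 and 31.7 in Gold. The groups were far apart in seed coat, and M11 lay within the Redmoon range in embryos. The embryo level of Lcu.2RBY.2g079170 was 1.18 times the seed coat level in M11, 10.7 times in Redmoon and 7.45 times in Gold. Its tissue dependence was -2.95 (standard error 0.11, edgeR adjusted p = 1.64e-30), from 0.09 in embryos (edgeR adjusted p = 0.207) and 3.04 in seed coat, and -3.21 to -2.69 over the 4 pairings.

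Lcu.2RBY.1g059720 came from 600 genes that were higher in M11 embryos and lower in M11 seed coat. In embryos it had 111, 111 and 107 TMM-normalized CPM in M11, 61.4, 58.9 and 58.1 in Redmoon, and 61.1, 79.2 and 57.9 in Gold. In seed coat it had 40.5, 41.8 and 50.3 in M11, 719, 690 and 756 in Redmoon, and 172, 191 and 175 in Gold. M11 was thus above all cultivar libraries in embryos and below them all in seed coat. Its embryo level was 2.48 times its seed coat level in M11, whereas the seed coat level of Lcu.2RBY.1g059720 was 12.1 times the embryo level in Redmoon and 2.72 times in Gold. The tissue dependence was 3.80 (standard error 0.09, edgeR adjusted p = 6.81e-41), from 0.78 and -3.02, and 2.69 to 4.91 over the 4 pairings.

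Lcu.2RBY.3g026620 was chosen from 854 genes that were lower in M11 embryos and higher in M11 seed coat. In embryos it had 2.90, 3.70 and 2.41 TMM-normalized CPM in M11, 48.1, 54.0 and 45.7 in Redmoon, and 37.8, 43.6 and 43.6 in Gold. In seed coat it had 71.4, 64.4 and 73.9 in M11, 13.9, 10.4 and 11.4 in Redmoon, and 7.82, 6.78 and 7.26 in Gold. Neither tissue showed an overlap, and the preferred tissue was turned round. The seed coat level of Lcu.2RBY.3g026620 was 23.3 times the embryo level in M11, while the embryo level was 4.13 times the seed coat level in Redmoon and 5.72 times in Gold. Its tissue dependence was -6.80 (standard error 0.12, edgeR adjusted p = 2.19e-46), from -3.90 and 2.90, and -7.29 to -6.30 over the 4 pairings.

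**Figure D5:**
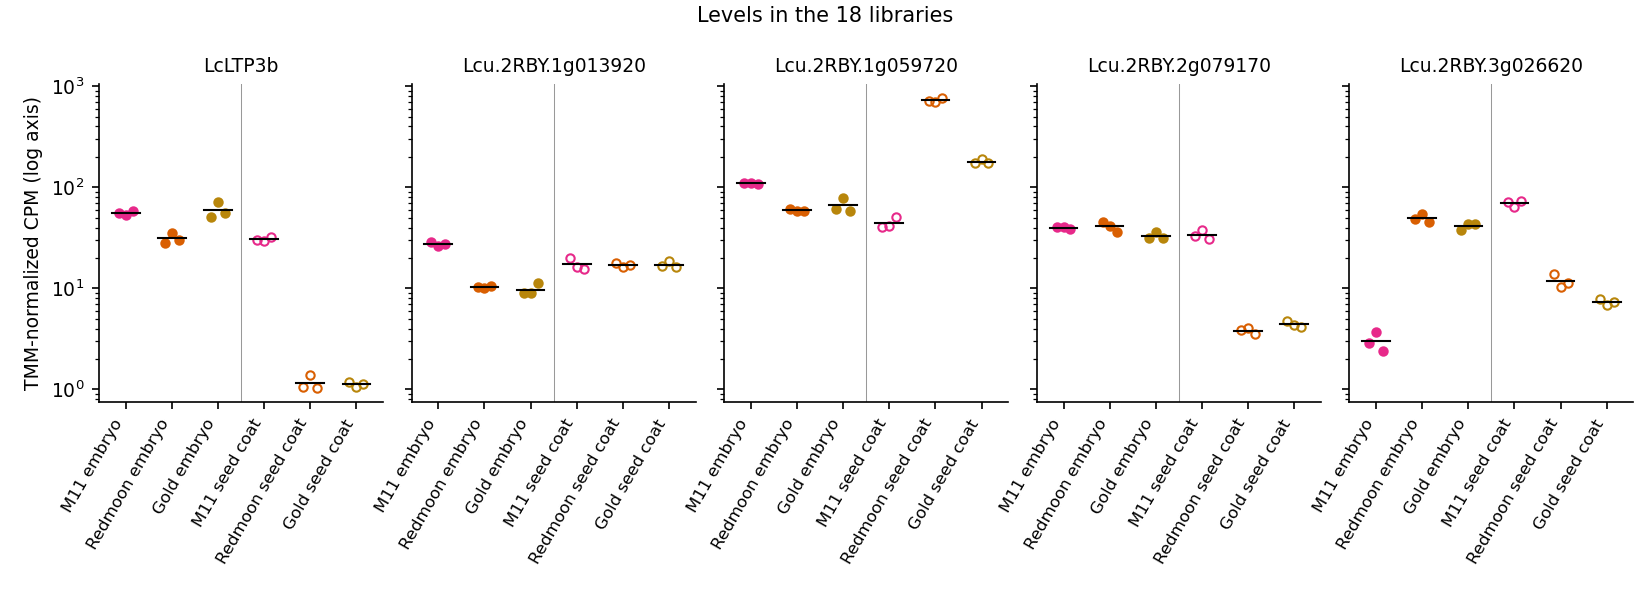
TMM-normalized CPM (y axis, log scale) of *LcLTP3b* and the 4 genes outside the study's list in the 18 libraries, by genotype and tissue (x axis), with filled points for embryos, open points for seed coat with endosperm and bars for group means. In seed coat, *LcLTP3b* and Lcu.2RBY.2g079170 lie far above both cultivars in M11 (29.5 to 32.1 and 30.7 to 37.5), and Lcu.2RBY.3g026620 is low in M11 embryos (2.41 to 3.70) and high in M11 seed coat (64.4 to 73.9).

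The called genes were spread over the genome, and the share called rose with expression level. By the chromosome number in their identifiers, 47.3% to 49.5% of the genes on chromosomes 1 to 7 were called, and 40.7% of 590 genes with an unplaced identifier, with 44.7% to 48.2% of the calls positive. Of 5369 pairs of neighbouring genes that were both called, 2871 had the same sign (53.5%). Divided into 5 classes of equal size by mean level, 15.9% of the lowest class and 72.3% of the highest were called. The median size of the called values went the other way, from 3.76 to 0.52 on the log2 scale. With few counts only large values can be called, so these medians do not compare the classes.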

How the data were processed

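PolyA RNA of 18 lentil libraries (3 genotypes, 2 tissues, 3 libraries each) was analysed from 6 tables of raw read counts per gene that the authors deposited without normalization. Per the labels, RNA was extracted with a plant mini kit and libraries were made with a TruSeq kit. The submitters' processing notes name STAR 2.7.10. For the counting tool, the genome build and the handling of multi-mapped reads, the entry is: not given in the sources used here. Genes kept the identifiers of the tables.

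edgeR 4.0.16 in R 4.3.3 was used on the counts (filterByExpr, TMM, glmQLFit, glmQLFTest) in 6 groups with no covariate. The call threshold was a Benjamini-Hochberg adjusted p of 0.05 over all 22081 genes tested. DESeq2 1.42.0, limma 3.58.1 functions used by edgeR, other scalings, filters, groupings and left-out libraries served as alternatives. Log2 levels for tissue classes used a prior count of 2. The fit was run on simulated data with 200 changed genes, far fewer than were called here. That run does not show how the scaling behaves when many genes change. Total counts ranged from 3270275 to 24309401, so low genes were measured with less precision in the shallow libraries. All replicate pairs differed by more than sampling noise, and none were merged.

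Members, lists and tests were chosen with earlier results of these data known. Named genes were those the study names and, for each of 4 patterns, the called gene with at least 10 counts in every library whose M11 tissue difference lay farthest from all 4 cultivar pairings.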

Additional observations from a re-analysis of the deposited data

Results flagged for a closer look

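The test of the difference between tissues was passed by 19 of the values reported above, given here without explanation, as it was by 48.3% of all genes tested. The 4 genes outside the study's list were chosen for this contrast and had to pass. The vicilin sum had a tissue dependence of -1.29. *LcLTP3b* (Lcu.2RBY.4g013600) had -4.40. Negative values were found for the vicilin genes Lcu.2RBY.3g014440 (-1.56), Lcu.2RBY.3g014450 (-1.52), Lcu.2RBY.3g014420 (-1.44), Lcu.2RBY.3g008770 (-1.40), Lcu.2RBY.1g038070 (-1.25), Lcu.2RBY.6g038570 (-1.13), Lcu.2RBY.6g038590 (-1.07), Lcu.2RBY.6g038550 (-1.01), Lcu.2RBY.6g038150 (-0.98), Lcu.2RBY.6g038160 (-0.81) and Lcu.2RBY.4g077560 (-0.80). Positive values were found for Lcu.2RBY.5g065750 (1.68) and Lcu.2RBY.7g031050 (0.79). Of the genes outside the study's list, Lcu.2RBY.1g059720 had 3.80 and Lcu.2RBY.1g013920 had 1.49, while Lcu.2RBY.2g079170 had -2.95 and Lcu.2RBY.3g026620 had -6.80. All are log2 values against the cultivar mean, embryos minus seed coat with endosperm.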

How the results depend on the processing

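None of the called named genes, nor the vicilin sum, changed sign under the alternatives run. Library totals alone turned the balance of all called genes from 46.9% to 86.0% positive and the median of the embryo-rich genes from -0.74 to 0.04. With at least 10 counts in every library, 10125 genes were tested and 6691 had a called tissue dependence, with 7984 called differences in embryos, 7504 in seed coat, 6350 against Redmoon, 7187 against Gold, 7013 between the cultivars as labelled, 5968 crossed and 1584 opposite genes. With the cultivars as 1 group the counts were 5164, 9421 in embryos, 9393 in seed coat and 780 opposite, 2 vicilin genes were called, and the vicilin sum was -0.97. Testing for a log2 difference of at least 1 gave 2719, 4243 in embryos, 4589 in seed coat, 2986 against Redmoon, 4732 against Gold, 4736 between the cultivars as labelled, 2015 crossed, 159 opposite genes and 6 vicilin genes. Thinning all libraries to the smallest total, chosen after seeing the data, gave 6790, 9455 in embryos, 6264 against Redmoon, 7657 against Gold, 7196 between the cultivars as labelled, 4705 crossed and 1397 opposite genes.

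The count of 10663 was 10711 with DESeq2's size factors (49.6% positive), 10835 with DESeq2, 10684 with a robust fit, 10599 without the vicilin genes and 10457 of 33300 without a filter (51.2% positive). Library totals alone gave 14090, with 4095 genes in embryos alone, 1177 in seed coat alone and 5567 in both tissues in the same direction. Leaving out 1 library gave 9894 to 10777 calls, 2260 to 2517 opposite genes, 13 to 14 vicilin genes and a vicilin sum of -1.30 to -1.22. *LcLTP3b* and the 4 genes outside the study's list were called under all 30 alternatives run for each. The replicate number was used as a block, which gave 10586 calls, or 10198 when it paired the tissues within a genotype. Deviations of same-numbered libraries correlated between -0.04 and 0.03 over 45 pairs. Such deviations may be mostly technical, so the correlations cannot show whether same-numbered libraries came from the same plant. Depth limited low genes most, and the M11 seed coat libraries were shallower than all other seed coat libraries.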
